A study of Mus musculus with 3 samples.

Results

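The genes described here are the cyclins, cyclin-dependent kinases (CDKs), CDK inhibitors, E2F and retinoblastoma-family regulators and the proteins that license replication origins. They were chosen by gene symbol from the deposited table, and 69 of its 15311 genes matched. Cdkn1a, Cdkn1c and Ccng1 also fit the symbol patterns and were left out by the rule. Expression was measured by RNA-seq in 3 libraries of male mouse embryonic stem (ES) cells, with 2 libraries of wild type (WT) and 1 library of K3R3. All 3 libraries came from cells with a lentiviral, doxycycline-induced transgene (1 µg/ml, a CMV promoter under rtTA control) for the histone variant H2A.Z fused to YFP. The WT libraries carried the wild-type form, and the K3R3 library carried a form with lysines 119, 120 and 123 changed to arginine. Hairpins against the 3′ UTR of endogenous H2A.Z were present in both groups, and YFP-positive cells were sorted. The labels give V6.5 (129SvJaexC57BL/6) as the strain and describe the transgenic lines as KH2 ES cells. They do not say whether the WT libraries came from separate cultures or whether the lines were single clones, so the p-values reflect the scatter of these particular libraries, and that scatter may be technical. In bulk RNA, fewer cells of a type and less RNA per cell cannot be told apart.

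The cell cycle is driven by CDKs, which are active only when bound to a cyclin. D-type cyclins with Cdk4 and Cdk6, then E-type cyclins with Cdk2, phosphorylate the retinoblastoma family of pocket proteins and so release E2F factors, which switch on genes of S phase. A- and B-type cyclins with Cdk2 and Cdk1 carry cells through S phase and mitosis, and small inhibitor proteins hold the kinases back. Before each S phase the origin recognition complex (ORC), Cdc6 and Cdt1 load the MCM2-7 helicase on DNA, and geminin prevents a second loading. ES cells are known for a short G1 phase and for a high E-type and low D-type cyclin activity.

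Library depth was 21614693 and 25426228 counts in WT replicates 1 and 2 and 24718223 counts in K3R3, and the 69 genes took 0.872%, 0.888% and 0.897% of these. Each sample was also checked for its cell type. All 12 listed ES markers were in the table, with summed levels of 6655, 5565 and 4698 CPM (counts scaled to library size with TMM factors) in WT replicate 1, WT replicate 2 and K3R3. Of these 12, 2 (Sox2 and Dppa5a) fell in K3R3 and 0 rose by the edgeR test at an adjusted p under 0.05. That test, used for the other lists too, called 0.542% of all tested genes lower and 2.02% higher. DESeq2 called 0 of the 12, and the WT libraries differed by -0.65 for Dppa5a, against a fitted -0.59. For Sox2 the WT libraries lay close together (668 and 680 CPM) and K3R3 lay lower (440 CPM, fitted -0.62). K3R3 lay below both WT libraries for 8 of the 12 ES markers (66.7%, background 34.2%), with a median log2 difference of -0.35. Of 30 fibroblast markers, listed because the cells had grown on irradiated feeder fibroblasts until the last passage, 27 were in the table and Lum, Postn and Fap were not. Their summed level was 2090, 1958 and 1742 CPM, with a median log2 difference (K3R3 minus WT) of 0.40, and 1 (Thy1) rose. Fn1 made the largest part of that sum, at 1229, 1197 and 864 CPM. K3R3 lay above both WT libraries for 16 of the 27 (59.3%, background 33.9%). Of 11 primitive endoderm markers tested, 4 fell and 0 rose (median -0.80), and of 10 germ layer markers 1 rose and 1 fell (median 0.21). All directions depend on the names of the count columns. The table gives H2afz at 219 and 232 CPM in WT and 222 CPM in K3R3. Those values check no label, since every library had the hairpin and a transgene whose coding reads are counted too.

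Of the cell-cycle genes that the rule kept, 0 passed the main test in either direction. Cdkn1c, which the rule left out, did pass it (log2 1.32). The quasi-likelihood test of edgeR, adjusted by Benjamini-Hochberg, called 0 of 68 tested genes, against a background of 2.02% of all 13829 tested genes called higher, 0.542% called lower and 2.57% in either direction. At an unadjusted p under 0.05, 2 stood higher (Ccnd2 and Cdk14) and 2 lower (Ccnb2 and Cdkn1b), where the background was 7.9% higher and 3.33% lower. DESeq2 called 0 of the 68, with 0.239% of all genes called higher and 0.188% lower. By size, 0 of the 68 lay at least 2-fold above or below both WT libraries (CPM after adding 1), against 2.19% and 0.159% of all genes. The 95% interval of the log2 difference lay within a 2-fold change in 61 of the 68, or 89.7%, against 60.0% of all tested genes. That interval narrows with expression, and it takes the lone K3R3 library to vary like the WT libraries. The other 7 were Ccnd2, Cdk14, Ccna1, Cdk20, Cdkn2b, Cdkn2c and Cdkn2d. Cdkn2a was too low to be tested.

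**Figure D1:**
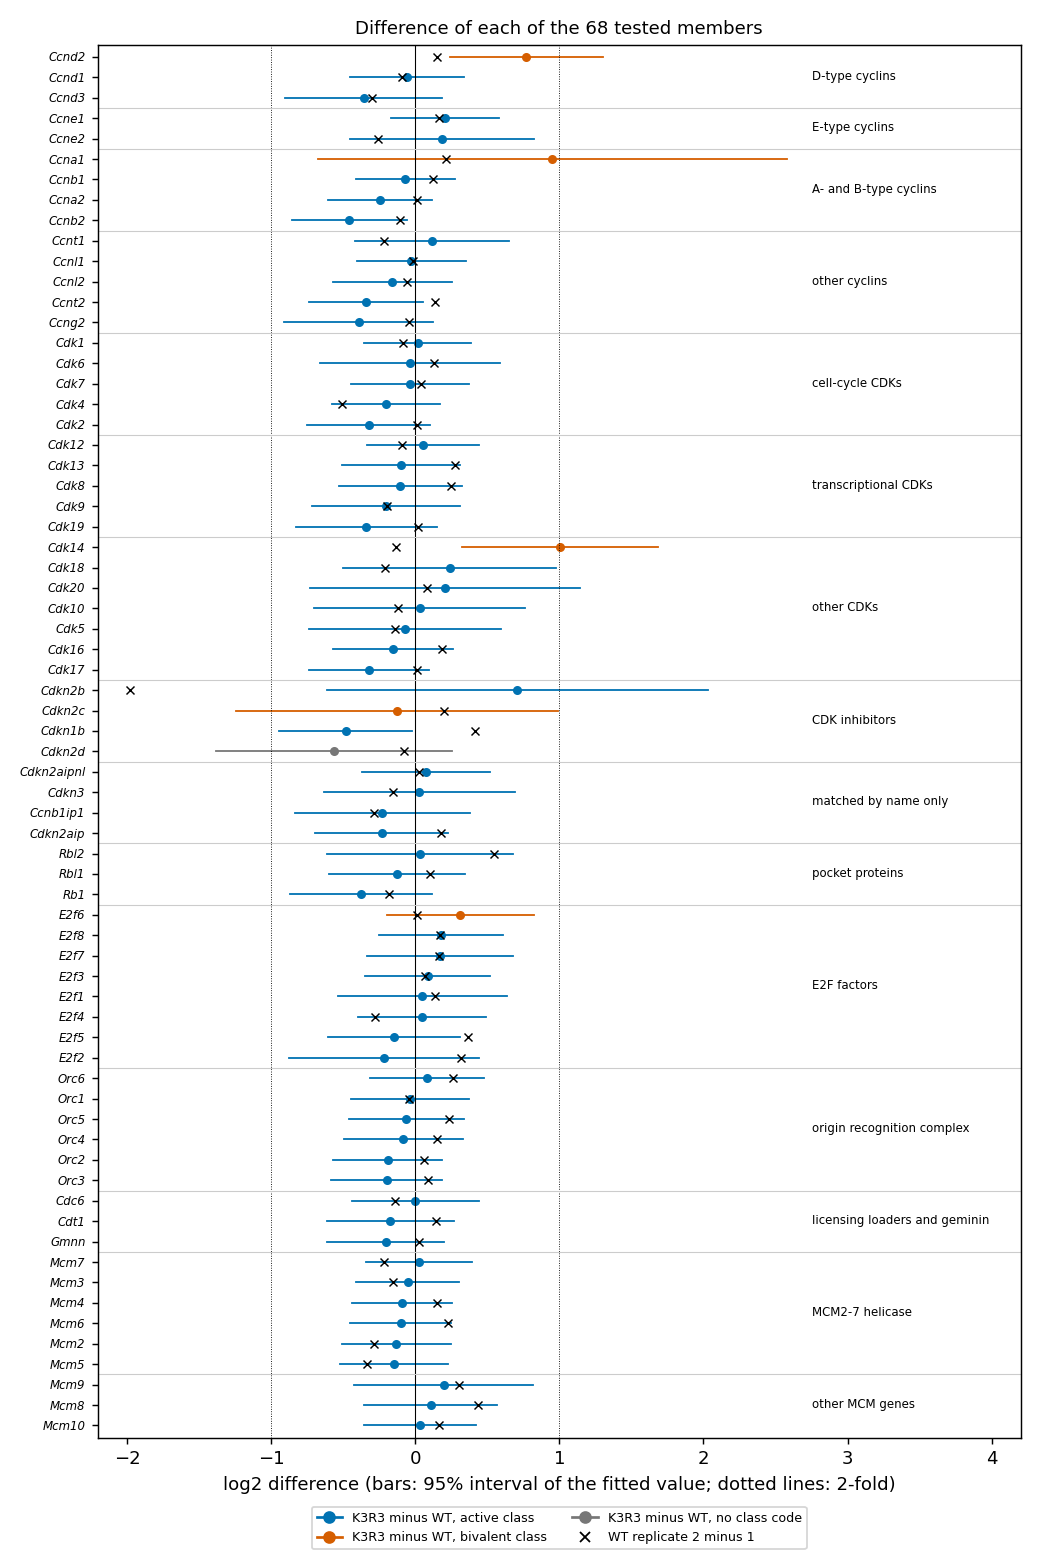
Fitted log2 difference (K3R3 minus WT, x axis) of each of the 68 tested genes (y axis, grouped by role), with its 95% interval as a bar and the difference of the 2 WT libraries as a cross. Most points lie near 0, and 61 of the intervals stay between the dotted 2-fold lines. Ccnd2 and Cdk14 have intervals wholly above 0, and Ccnb2 and Cdkn1b have intervals wholly below 0.

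The median difference of the 68 genes was -0.06, against -0.01 over all tested genes. The median size of the difference was 0.14 and 0.17 log2 units against WT replicates 1 and 2, and it was 0.15 between the WT replicates themselves. Over all tested genes the same values were 0.27, 0.24 and 0.25. K3R3 therefore lay about as far from each WT library, over these genes, as the WT libraries lay from each other. On the TMM scale, K3R3 lay above both WT libraries for 16 genes (23.5%, background 33.9%), below both for 30 (44.1%, background 34.2%) and between them for 22. That order depended on the scaling: by deposited RPKM (reads per kilobase of gene, scaled to sequencing depth), which uses other library totals and no TMM factors, 32 lay above both (background 48.7%) and 16 below both (background 19.2%). With those totals and no TMM factors the median of all tested genes moved from -0.01 to 0.11. The TMM factors left out were 0.973 and 0.976 for WT and 1.05 for K3R3, while the counts made up similar shares of the RPKM totals (66.2%, 66.9% and 67.1%).

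Levels per length spanned a wide range. Compared by deposited RPKM in WT replicate 1, WT replicate 2 and K3R3, Ccnb1 stood highest at 170, 188 and 185. Cdk4 followed at 160, 115 and 130, and Mcm6 at 113, 134 and 125. The WT values of Cdk4 and Mcm6 overlapped, so their order was not resolved. At the low end were Ccna1, at 0.254, 0.302 and 0.589 RPKM, and Cdkn2a, at 0.231, 0.142 and 0.351 RPKM. Together the 69 genes summed to 2171, 2209 and 2239 RPKM. On the TMM scale the sums were 8965, 9094 and 8517 CPM, so the place of K3R3 depended on the scaling.

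**Figure D2:**
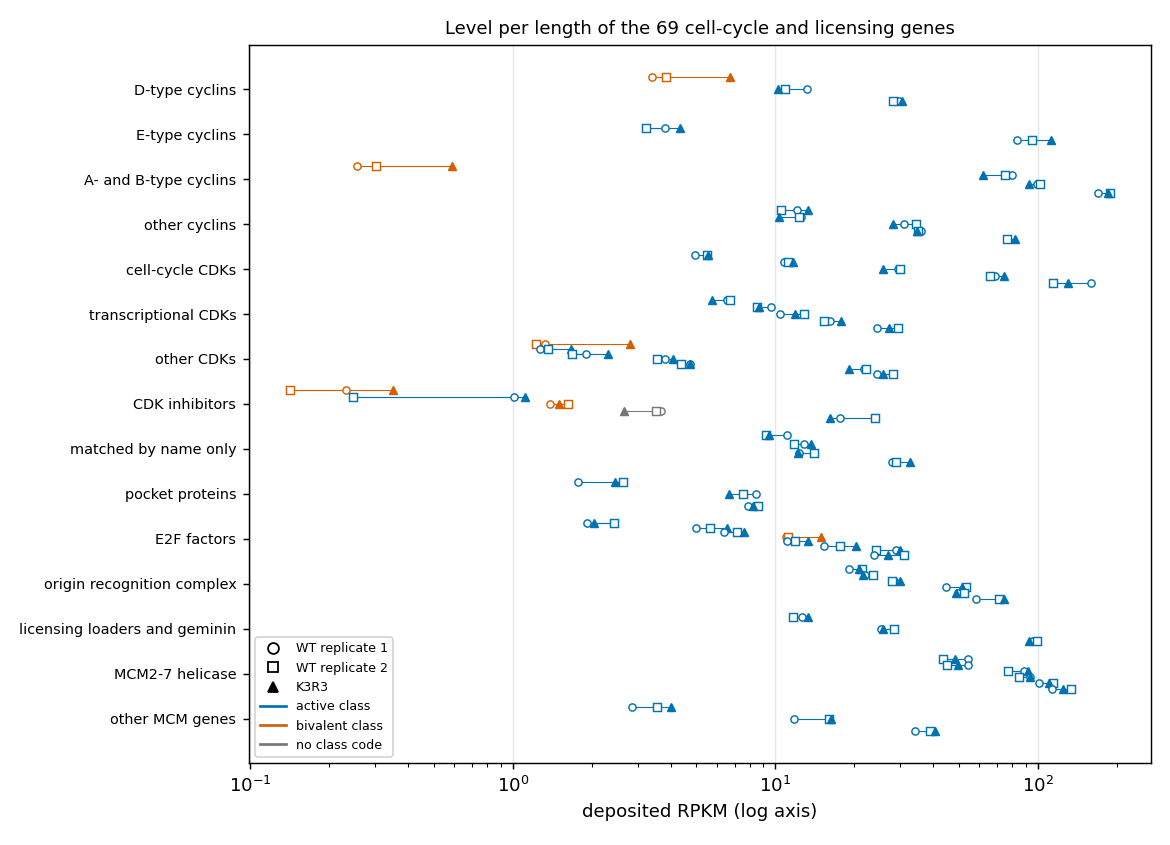
Deposited RPKM (x axis, log scale) of the 69 genes grouped by role (y axis), with WT replicate 1 as an open circle, WT replicate 2 as an open square and K3R3 as a filled triangle, joined for each gene. Genes toward the high end include MCM2-7, Ccna2, Ccnb1, Ccnb2, Ccne1, Gmnn, Cdk1 and Cdk4. Those toward the low end include Ccna1, the Cdkn2 inhibitors, Cdk14 and Cdk20. The orange lines of Ccnd2, Ccna1, Cdk14, E2f6 and Cdkn2a have the triangle to the right of both WT symbols, and that of Cdkn2c has it between them.

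D-type cyclins are the partners of Cdk4 and Cdk6 and respond to growth signals. Ccnd2 stood at 30.4 and 33.9 CPM in WT and 54.9 CPM in K3R3, above both. Its log2 difference was 0.77 (SE 0.27; edgeR adjusted p = 0.0926), 0.85 and 0.70 against each replicate alone, with 0.15 between the WT replicates. With the RPKM scaling (its totals, no TMM factors) it passed the test (0.89; adjusted p = 0.0275), and so did Cdk14, beside 3.37% of all genes called higher. Ccnd1, the most abundant of them per length, stood at 175 and 164 CPM in WT and 163 CPM in K3R3 (log2 -0.06), and Ccnd3 at 43.4 and 35.2 against 30.7 CPM (-0.36). The summed level of the family was 46.2 and 42.9 RPKM in WT and 47.3 in K3R3 (249, 233 and 249 CPM on the TMM scale). Within it, the share of Ccnd2 was 7.35% and 8.93% in WT and 14.2% in K3R3, and that of Ccnd3 was 28.5% and 25.3% against 21.6%. The shares of Ccnd1 (64.1%, 65.7% and 64.2%) overlapped. A single K3R3 library gives no test of these shares. In a later annotation (GENCODE vM21, build GRCm38) the whole span of Ccnd2, introns included, overlaps the opposite-strand genes Gm43126 and 9330179D12Rik. Overlap of exons was not checked. Where exons overlap, reads from either gene could not be told from Ccnd2 if strand was not used in counting. The libraries were strand-specific, per the labels, but the counting setting is not given in the sources used here.

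E-type cyclins bind Cdk2 at the entry to S phase. Ccne1 stood at 254 and 284 CPM in WT and 310 CPM in K3R3 (log2 0.21, SE 0.19; edgeR adjusted p = 0.885). Ccne2 stood at 17.8 and 14.9 against 18.6 CPM (0.19). K3R3 was the highest library for both, by less than the intervals of the differences, which reached down to -0.17 and -0.46. Per length Ccne1 made up 95.6%, 96.7% and 96.3% of E-type cyclin RNA.

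Among A- and B-type cyclins, those of dividing cells were abundant in every library. Ccna2, the cyclin of S phase and G2, stood at 436 and 439 CPM in WT and 369 CPM in K3R3 (log2 -0.24). Ccnb1, the main mitotic cyclin, stood at 611 and 666 against 608 CPM (-0.07). Ccnb2, a second mitotic cyclin, stood at 191 and 178 against 135 CPM, below both WT libraries (-0.46, SE 0.20; unadjusted p = 0.0268, edgeR adjusted p = 0.32). Ccnb1 and Ccnb2 each have a named pseudogene in the annotation (Ccnb1-ps and Ccnb2-ps), as has Ccnd3, so their counts are uncertain to the extent that reads were split. Ccna1, the A-type cyclin of male germ cells, had 13 and 18 counts in WT and 34 in K3R3. Its fitted difference of 0.95 had an SE of 0.83 and an interval from -0.68 to 2.58, so neither a difference nor its absence was detectable at this depth.

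The cell-cycle CDKs had differences from -0.32 to 0.02. Cdk1, the kinase of mitosis, stood at 307 and 289 CPM in WT and 302 CPM in K3R3 (log2 0.02, interval -0.35 to 0.39), between the WT libraries. Cdk2, the partner of E- and A-type cyclins, stood at 111 and 112 against 88.9 CPM, below both (-0.32, edgeR adjusted p = 0.723). Cdk4 stood at 335 and 236 against 248 CPM (-0.20), and its WT libraries lay farther apart (-0.51) than K3R3 lay from their mean. Cdk6 stood at 18.9 and 20.7 against 19.3 CPM (-0.04). Cdk7, the CDK-activating kinase, stood at 127 and 131 against 126 CPM (-0.04).

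Kinases and cyclins that act mainly in transcription also gave 0 calls. Cdk9, the elongation kinase, stood at 50.9 and 44.4 CPM in WT and 41.5 CPM in K3R3 (log2 -0.20), and its cyclin Ccnt1 had a difference of 0.12. Ccnt2, a second cyclin of Cdk9, stood at 169 and 185 against 140 CPM, below both (-0.34). The Mediator kinases Cdk8 and Cdk19 had -0.10 and -0.34, and the elongation kinases Cdk12 and Cdk13 had 0.05 and -0.10. Of these, Cdk19 was steady in WT (59.2 and 60.1 CPM) and lower in K3R3 (47.2 CPM), with an edgeR adjusted p of 0.782. Ccnl1 and Ccnl2, cyclins linked to RNA splicing, had -0.03 and -0.16. Ccng2, an unconventional cyclin associated with cell-cycle arrest, stood at 48.5 and 47.1 against 36.4 CPM, below both (-0.39).

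Cdk14, a membrane-associated kinase that acts with cyclin Y in Wnt signalling, had the largest fitted difference of the 68. It stood at 10.1 and 9.23 CPM in WT and 19.4 CPM in K3R3, above both, from 213, 229 and 506 counts. The log2 difference was 1.01 (SE 0.35; edgeR adjusted p = 0.0812), with 0.94 and 1.07 against each replicate alone and -0.13 between the WT replicates. With the RPKM scaling it passed (1.13; adjusted p = 0.0267). The related kinases Cdk16 and Cdk17 had differences of -0.16 and -0.32. Cdk18, another relative, stood at 9.04 and 7.82 against 9.95 CPM (0.24). The share of Cdk14 in the RPKM of these 4 kinases was 2.69% and 2.30% in WT and 5.59% in K3R3. Cdk5 and Cdk10 had -0.07 and 0.03, and Cdk20 stood at 3.62 and 3.83 against 4.30 CPM (0.21).

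Among the 5 CDK inhibitors that the rule kept, Cdkn1b stood highest per length, at 17.7, 23.9 and 16.2 RPKM. It encodes p27, which binds cyclin E with Cdk2, and stood at 66.1 and 88.2 CPM in WT and 55.2 CPM in K3R3. K3R3 lay below both (log2 -0.48, SE 0.23; unadjusted p = 0.0438, edgeR adjusted p = 0.416), while the WT libraries differed by 0.42. The INK4 inhibitors bind Cdk4 and Cdk6. Cdkn2d stood at 7.23 and 6.85 against 4.76 CPM (-0.56, the lowest of the 68; adjusted p = 0.791), and Cdkn2c at 2.38 and 2.74 against 2.34 CPM (-0.13). Cdkn2b had 46 and 13 counts in WT and 57 in K3R3. Its K3R3 level of 2.19 CPM equalled that of WT replicate 1 (2.19 CPM) to the digits given and lay above that of replicate 2 (0.524 CPM), so its fitted difference of 0.71 rested on replicate 2 alone. Without replicate 2 it was 0.00079. Cdkn2a, whose transcripts encode both p16 and p19Arf and whose counts do not separate them, had 7, 5 and 12 counts. The symbol patterns also took in 4 genes that are not inhibitors or cyclins of these families, with differences from -0.23 to 0.07: Ccnb1ip1, Cdkn2aip, Cdkn2aipnl and Cdkn3. Cdkn3, a phosphatase that acts on CDKs, stood at 15.5 and 13.9 CPM in WT and 15.0 CPM in K3R3 (0.03).

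Pocket proteins, which restrain E2F factors, were measured at moderate levels. Rb1 stood at 60.5 and 53.4 CPM in WT and 43.8 CPM in K3R3, below both (log2 -0.38, SE 0.25; edgeR adjusted p = 0.72). Rbl1, encoding p107, stood at 59.9 and 64.3 against 56.9 CPM (-0.13). Rbl2, encoding p130, stood at 13.5 and 19.7 against 17.0 CPM (0.03), between WT libraries that themselves differed by 0.55. Of the 3, Rb1 and Rbl2 overlap protein-coding genes on the opposite strand by whole gene span, and exons were not compared.

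The 8 E2F genes had a median difference of 0.07 and a range from -0.22 to 0.31, and 0 were called. Among the activators, E2f1 stood at 24.4 and 26.8 CPM in WT and 26.5 CPM in K3R3 (log2 0.05). E2f2 stood at 14.1 and 17.6 against 13.6 CPM (-0.22), and E2f3 at 88.2 and 92.6 against 96.0 CPM (0.09). E2f4 and E2f5, which bind pocket proteins as repressors, lay between the WT libraries. E2f4 stood at 89.3 and 73.7 against 84.1 CPM (0.05) and E2f5 at 64.6 and 83.1 against 66.6 CPM (-0.15). E2f6, a repressor that joins a Polycomb complex, stood at 42.5 and 42.8 against 53.0 CPM (0.31, SE 0.26; edgeR adjusted p = 0.835). E2f7 stood at 42.4 and 47.5 against 50.7 CPM (0.17) and E2f8 at 88.2 and 99.4 against 106 CPM (0.18). These last 3, along with E2f3, lay above both WT libraries, by less than the intervals of the differences. Per length, E2f4 and E2f5 were the most abundant of the family, at 28.8 and 23.8 RPKM in WT replicate 1 and 24.1 and 31.0 RPKM in replicate 2, in an order that changed between the replicates.

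The origin recognition complex marks the sites where replication can begin. Its 6 genes had a median difference of -0.07, from -0.20 (Orc3) to 0.08 (Orc6). Orc1, the subunit that comes and goes with the cell cycle, stood at 132 and 129 CPM in WT and 127 CPM in K3R3 (log2 -0.04). Orc2 stood at 261 and 271 against 233 CPM (-0.19), Orc3 at 215 and 229 against 194 CPM (-0.20) and Orc4 at 121 and 134 against 120 CPM (-0.08). Orc5 (143 and 169 against 149.5 CPM) and Orc6 (150 and 180 against 175 CPM) lay between the WT libraries. All 6 intervals lay within -0.58 and 0.48.

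The loading factors and their inhibitor had differences from -0.21 to 0.00. Cdc6 stood at 90.9 and 82.6 CPM in WT and 86.8 CPM in K3R3 (log2 0.00, interval -0.44 to 0.44). Cdt1 stood at 85.8 and 94.95 against 80.1 CPM (-0.17). Gmnn, which encodes geminin, stood at 146 and 149 against 128 CPM, below both (-0.21, edgeR adjusted p = 0.916).

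MCM2-7 is the replicative helicase, and its 6 genes were among the most abundant and had narrow intervals. Their summed level was 505 and 499 RPKM in WT and 519 RPKM in K3R3. On the TMM scale K3R3 was instead the lowest, with sums of 2396 and 2342 CPM in WT and 2238 CPM in K3R3. Mcm2 stood at 285 and 233 CPM in WT and 237 CPM in K3R3 (log2 -0.13), Mcm3 at 418 and 375 against 382 CPM (-0.05) and Mcm5 at 289 and 229 against 234 CPM (-0.15). Mcm4 stood at 565 and 626 against 559 CPM (-0.09), Mcm6 at 510 and 595 against 515 CPM (-0.10) and Mcm7 at 330 and 283 against 312 CPM (0.03). K3R3 lay between the WT libraries for 5 of the 6 and below both for Mcm4. The 6 intervals together ran from -0.53 to 0.39. The WT libraries did not move as one complex either, since Mcm2, Mcm3, Mcm5 and Mcm7 were lower in replicate 2 (-0.16 to -0.34) and Mcm4 and Mcm6 higher (0.15 and 0.22). Mcm10, an initiation factor, stood at 185 and 208 against 201 CPM (0.03), and Mcm8 and Mcm9, which act in DNA repair, had 0.11 and 0.20.

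Promoters of licensing genes are textbook E2F targets, so sites in them are shown beside these values. RefSeq promoter sequences (250 bases before to 50 after the start of the gene, build GRCm38.p6) matched 57 of the 69 genes by symbol, with 67 promoters. The other 12 had no match and were not searched: Ccna2, Ccnd1, Ccnd2, Ccne2, Cdk17, Cdk19, Cdk5, E2f4, E2f5, Gmnn, Mcm4 and Rb1. The letters TTTCCCGC or TTTGGCGC, 2 versions of the E2F site, were searched on both strands. Sites on opposite strands can overlap at their GC-rich ends, and each gene was counted once. They occurred in promoters of 13 of the 57 genes (22.8%) and of 1.80% of all 27025 genes in that table. The following 7 lines give 30 bases around a site of named genes, on the strand of the gene, with the site in capitals.
Mcm5: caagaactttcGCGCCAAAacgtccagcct
Mcm6: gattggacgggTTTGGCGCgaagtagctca
Mcm7: aatttcgaaccGCGGGAAAcagggtgtcca
Cdc6: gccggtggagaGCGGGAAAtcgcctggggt
Orc3: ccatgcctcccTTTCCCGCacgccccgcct
Cdk2: aaccaggaactGCGGGAAAgttgtgcagct
E2f7: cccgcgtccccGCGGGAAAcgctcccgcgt
They lie at chr8:75109349-75109378 (Mcm5, + strand), chr1:128359734-128359763 (Mcm6, - strand), chr5:138172030-138172059 (Mcm7, - strand), chr11:98908002-98908031 (Cdc6, + strand), chr4:34614965-34614994 (Orc3, - strand), chr10:128705173-128705202 (Cdk2, - strand) and chr10:110745230-110745259 (E2f7, + strand). Counted from the first transcribed base as 0, the sites begin at -149, -47, -165, -138, -41, -140 and -198. The 12 tested genes with such letters had a median difference of -0.08 and the 44 without had -0.04, with 0 called in either. The cell-cycle homology element of mitotic genes (TTTGAA or TTCGAA, both strands, the second its own reverse complement) occurred in 11 of the 57 genes (19.3%) and in 21.7% of all genes. Among them were Ccnb2 and Cdk1, and the 11 genes had a median difference of 0.03. A match of letters is a description and shows no binding.

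The authors' table also gives each gene a class. A bivalent promoter is one where an activating histone mark and a Polycomb mark are found together in ES cells. Of the 69 genes, 62 were classed as active, 6 as bivalent (Ccnd2, Ccna1, Cdk14, Cdkn2a, Cdkn2c and E2f6) and 1, Cdkn2d, had no code. Of the 5 bivalent genes tested, K3R3 lay above both WT libraries for 4, or 80.0%, where the background over all 1671 bivalent genes tested was 72.9%. Their median difference was 0.77, against 0.65 over all bivalent genes. For the 62 active genes here it was -0.07, against -0.04 over all active genes, with 12 above both WT libraries (background 27.8%) and 28 below both (background 37.9%). Both genes higher at an unadjusted p under 0.05 were bivalent, where the background among bivalent genes was 31.6%. The edgeR test called 10.5% of all bivalent genes higher and 0.539% lower, and 0 of these 5. It called 0.838% of all active genes higher and 0.473% lower, and 0 of these 62. The share above both WT libraries among these few genes was near that of their class. Fibroblast markers had a median difference of 0.40, and K3R3 lay above both WT libraries for 16 of 27 (59.3%, background 33.9%). Their sum was lowest in K3R3 (2090 and 1958 CPM in WT, 1742 CPM in K3R3). Fn1 made the largest part of that sum (1229 and 1197 CPM in WT, 864 CPM in K3R3). ES markers had a median of -0.35, and their sum also differed between the WT libraries (6655 and 5565 CPM, against 4698 CPM in K3R3). The part of either list in the levels of Ccnd2 and Cdk14 was not tested.

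**Figure D3:**
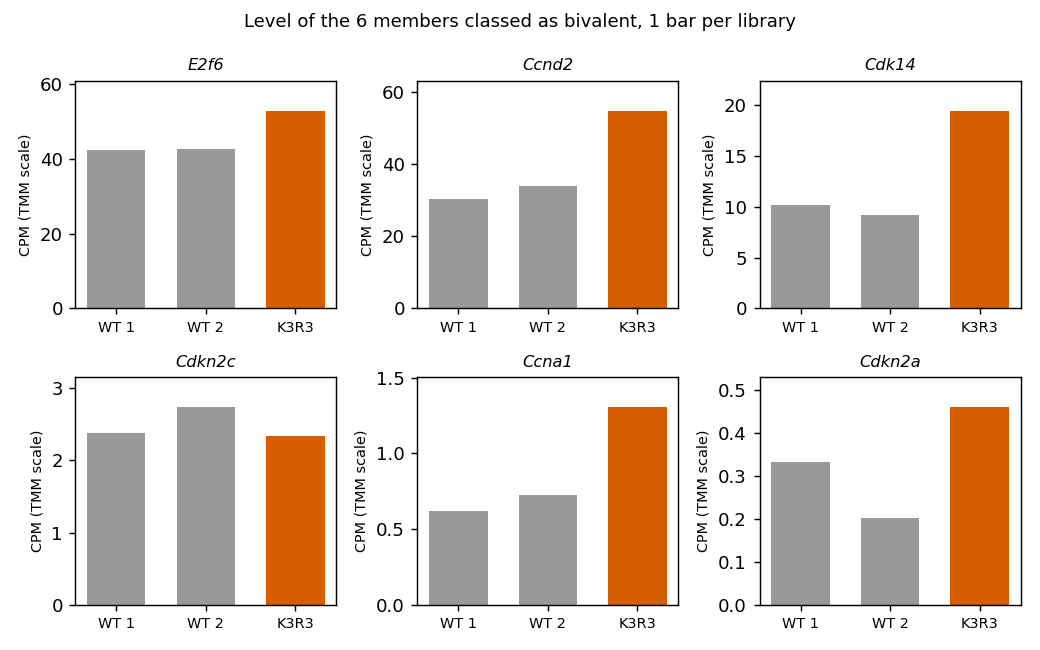
Level (y axis, CPM on the TMM scale, each axis from 0) of the 6 genes classed as bivalent in each library (x axis, 1 bar per library, no error bars). K3R3 is the highest bar for E2f6, Ccnd2, Cdk14, Ccna1 and Cdkn2a and the lowest for Cdkn2c. Ccna1 and Cdkn2a rest on at most 34 and 12 counts.

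**Figure D4:**
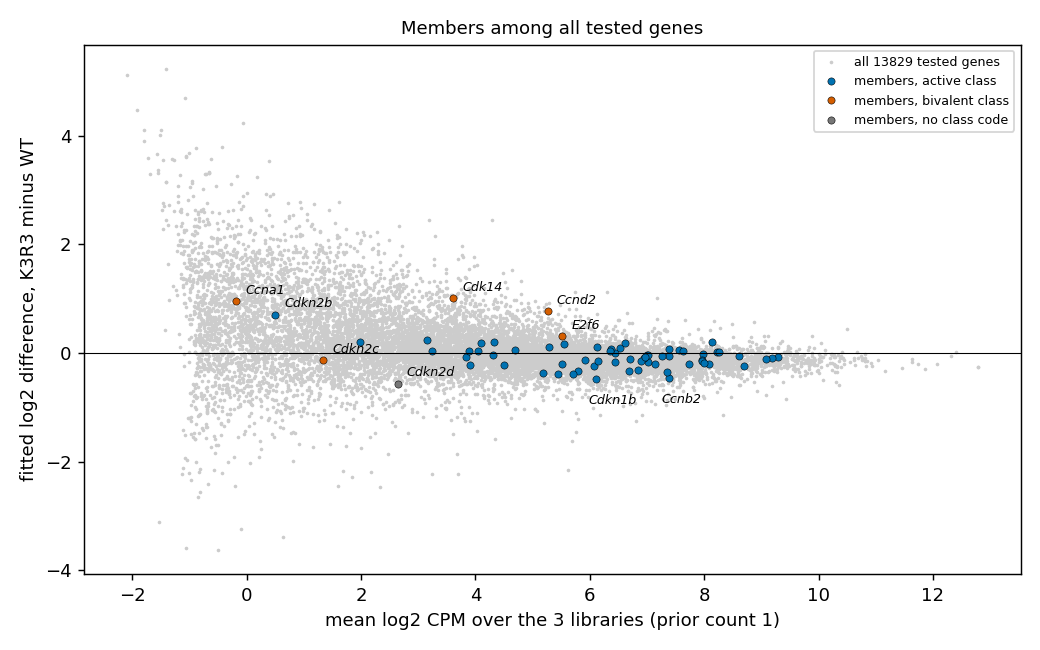
Fitted log2 difference (y axis, K3R3 minus WT) against mean log2 CPM (x axis) for all tested genes in grey and the 68 cell-cycle genes in colour by class. The blue points of active genes lie close to 0 at high expression, and Cdk14 and Ccnd2 lie above them, within the grey cloud.

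The other genes of the pathway were read from lists of partners. Of 23 further cyclins and CDK partners tested, 0 were called, with a median of -0.03. The highest were Ccno (log2 1.56) and Cables1 (1.09, from 1.86 and 3.99 to 6.26 CPM), both bivalent and both low. The lowest were Ccnyl1 (-0.38) and Ccny (-0.29). Ccny encodes cyclin Y, the partner of Cdk14, and Ccnyl1 encodes a relative of cyclin Y. Of 14 partners of E2F and pocket proteins, 0 were called, with a median of -0.10. Tfdp2, a dimer partner of E2F, came nearest, at 140 and 145 CPM in WT and 88.4 CPM in K3R3 (-0.69, edgeR adjusted p = 0.0535). Mybl2, the B-Myb factor of the mitotic gene programme, had -0.56, and Myc (0.38) and Lin37 (0.20) were the highest. Of 19 genes listed as CDK phosphatases, kinases and cyclin ligases, a list that also held Trp53 and Mdm2, 0 were called (median -0.05). Pkmyt1 (-0.53) and Fbxw7 (-0.53), the ligase subunit for cyclin E, were the lowest, and Cdc25b (0.19) and Cdc25a (0.13) the highest.

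Of 43 genes of origin firing and the replication fork tested, 0 were called, with a median of -0.07. Tk1, thymidine kinase, was the highest at 10.9 and 7.13 CPM in WT and 14.6 CPM in K3R3 (log2 0.69, edgeR adjusted p = 0.44), followed by Clspn (0.20), and Tyms (-0.45) and Gins1 (-0.38) were the lowest. Of 30 mitotic genes, 0 were called, with a median of -0.14, and K3R3 lay below both WT libraries for 18, or 60.0% (background 34.2%). That count depended on the scaling: by deposited RPKM 7 lay below both (23.3%, background 19.2%) and 7 above both (23.3%, background 48.7%). The share above both was under the background on either scale (6.67% against 33.9% on the TMM scale). Birc5, which encodes survivin, stood at 91.0 and 90.4 against 133 CPM (0.56, adjusted p = 0.161), and Plk1 (0.10) was next. Cenpf (-0.35) and Mki67 (-0.33) were the lowest. Over the 5 lists, DESeq2 also called 0, while 4 genes stood higher and 4 lower at an unadjusted edgeR p under 0.05, where 7.9% and 3.33% of all tested genes did. Neither share of the listed genes was above that background.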

How the data were processed

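The authors deposited unnormalised counts, as whole numbers for each gene, and HTSeq 0.5.4p1 and DESeq 1.10.1 and build mm9 are named in the submitters' processing notes. The aligner, annotation and strand setting are not given in the sources used here. RPKM values were deposited by the authors, and by the values each is the count over gene length and 1 library total. The class code is the authors' deposited column, used as labels. The fold ratio, its log2 and a p-value were also deposited by the authors. By the values the ratio is WT over K3R3, opposite to its header, so directions here were computed from the counts. The smallest count in the table was 1.

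The test used edgeR 4.0.16 (R 4.3.3). TMM factors were taken over the whole table before genes averaging under 0.5 CPM in the 3 libraries were dropped, which left 13829, among them 68 of the 69 chosen. K3R3 was compared with WT by its quasi-likelihood test (two-sided), adjusted by Benjamini-Hochberg over all tested genes, at 0.05. The spread came from the 2 WT libraries (1 residual degree of freedom), with an infinite prior, so that the fitted dispersion trend set the p-values and intervals. A chi-square over genes between the WT libraries was 24.3 times its degrees of freedom, so they were kept as 2 samples. Differences against 1 replicate alone use log2 CPM with a prior count of 1. The script was tested on simulated data of 13829 genes with known changes. It recovered 37% of 100 genes changed 2-fold and 94% of 100 genes changed 4-fold, with 9 false calls. A 2-fold change could therefore go uncalled. Genes, lists and promoter motifs were chosen with earlier results of these data known. Named genes were a core fixed by symbol, the 8 highest and 8 lowest differences, the bivalent genes, and the 2 highest and 2 lowest of each partner list. Alternatives were DESeq2 1.42.0, its size factors, RPKM-implied totals without TMM factors, other filters, the likelihood ratio test and leaving out each WT library. Promoter letters were searched in RefSeq sequences of build GRCm38.p6, and a planned comparison of protein sequences was not run.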

Additional observations from a re-analysis of the deposited data

How the results depend on the processing

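Of the cell-cycle genes that the rule kept, 0 were called in either direction under most alternatives, as in the main test. These were DESeq2 size factors, no filter (69 genes), a required mean CPM of 2 (66 genes), the likelihood ratio test and DESeq2. With library totals implied by RPKM and no TMM factors, which were changed together, 2 were called higher (Ccnd2, 0.89, and Cdk14, 1.13) and 0 lower, beside 3.37% of all genes called higher. The adjusted p of Ccnd2 ran from 0.0275 to 0.351 over these alternatives and that of Cdk14 from 0.0267 to 0.438. DESeq2 called 59 genes in all, against 355 by edgeR, and the cause was not tested. With the RPKM scaling 516 were called and the share called higher went from 78.9% to 90.3%. The median of the 68 genes became 0.058 with that scaling, and it ran from -0.068 to -0.031 without each WT replicate. With the RPKM scaling the sign also changed for Ccnb1 (0.053), Ccnd1 (0.068), Ccnl1 (0.10), Cdk13 (0.024), Cdk5 (0.055), Cdk6 (0.086), Cdk7 (0.086), Cdk8 (0.021), Mcm3 (0.072), Mcm4 (0.033), Mcm6 (0.021), Orc1 (0.088), Orc4 (0.041) and Orc5 (0.062), and with DESeq2 size factors for Cdc6 (-0.0097). No paired analysis was possible because the groups share 1 replicate number at most and K3R3 has 1 library. Leaving out a WT library leaves no residual degrees of freedom, so no test was run there. Genes at low counts, such as Ccna1 and Cdkn2b, had intervals wider than a 2-fold change in at least 1 direction.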

Other observations

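The authors' deposited table gave 2 of the 69 genes an unadjusted p under 0.05, Ccnd2 (0.00628) and Cdk14 (0.00777), against 4.86% of all genes in it. Its deposited sign was opposite to K3R3 minus WT for 67 of the 68 tested genes, so a reader who takes its header at face value would read both as lower in K3R3. The widest gap between the WT libraries among the 68 was that of Cdkn2b (-1.98 on the log2 scale), ahead of Rbl2 (0.55) and Cdk4 (-0.51). The genes left out by the rule stood at 89.1 and 52.6 CPM in WT and 68.2 CPM in K3R3 (Cdkn1a), 676 and 531 against 471 CPM (Ccng1) and 19.8 and 21.1 against 51.2 CPM (Cdkn1c). Of these, Cdkn1c passed the edgeR test (log2 1.32, adjusted p = 0.000453). In the later annotation 33 of the 69 genes overlap a gene on the opposite strand, protein-coding for 16 of them. These overlaps are of whole gene spans, introns included, and exons were not compared.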
